A study of Mus musculus with 6 samples.

Results

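Voltage-gated sodium and calcium channel subunits were followed in the ganglion cell layer of the mouse retina 6 hrs after optic nerve crush. The genes were taken by symbol, and they encode the alpha and beta subunits of sodium channels (Scn) and the alpha1, alpha2delta, beta and gamma subunits of calcium channels (Cacna, Cacnb and Cacng). On the arrays 85 probe sets carried such a symbol, and they represent 35 genes. Each gene was read from its probe set with the highest mean over the 6 arrays, and was kept if that mean reached an intensity of 40, which left 32 genes, out of 15103 genes on the arrays that met this limit. Of the 32 genes, 16 encode pore subunits and 16 auxiliary subunits. Scn10a, Cacng1 and Cacng6 were below the limit, at 3.88 to 18.7, 13.1 to 56.2 and 19.1 to 43.5 per eye, and were not tested.

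The tissue came from male C57BL/6J mice, whose age is not given in the sources used here. In the crush group the optic nerve was crushed for 10 sec, 1 mm behind the globe by the labels and farther back by the methods, and 3 eyes were taken after 6 hrs. The control group is 3 contralateral eyes of the same group of animals with an uninjured nerve. About 6000 cells were cut from the ganglion cell layer of each eye by laser capture, giving about 60 ng of total RNA that was amplified and hybridized to 1 array per eye.

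A pore subunit of these channels is a single large protein that holds the ion path and the voltage sensors, while auxiliary subunits bind to it and alter its delivery to the membrane and its gating. In retinal ganglion cells sodium channels at the axon initial segment start the action potentials that travel down the optic nerve, and calcium channels let calcium into dendrites, somas and terminals, where it drives transmitter release and calcium signaling. Several gamma subunits act mainly on AMPA receptors for glutamate.

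Values are linear array intensities in arbitrary units, and differences are crush minus control on the log2 scale, with eye number pairing the eyes. Intensity on one probe set cannot be set against that on another, so no order of abundance between genes is given. Median intensity per array was 131.2 to 153.9, lowest for crush eye 2 and highest for crush eye 3. All 15 of the RGC markers on the arrays were above the intensity limit, and their summed intensity was 66850 to 68790 in control and 60550 to 75720 in crushed eyes. Meeting this limit does not show which cells were captured, since 33169 probe sets met it. Markers of other cells were present too, with all 10 rod markers, 8 bipolar cell markers, 11 amacrine cell markers and 9 Muller cell markers above the limit, so that a channel signal may belong to any of these cells. In such a mixture fewer cells of a type and less RNA per cell cannot be told apart. Crush eyes 2 and 3 lay at opposite ends for many genes. Crush eye 3 gave the highest of the 6 values for 15 of the 32 channel genes (26% of all genes), and crush eye 2 the lowest for 11 (36.5% of all genes).

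Few channel genes passed a threshold, and the counts below describe them with no test of the group. With an unadjusted p under 0.05 from limma 2 genes were higher after crush (Cacna1b and Cacna1g) and 1 was lower (Cacna2d3), together 9.38% of the 32 genes, beside 5.03% of all genes (2.76% higher and 2.27% lower) and 7.68% of all tested probe sets. The same 3 genes also had a ratio over 1.2 and an intensity difference over 80, the size limits that the study set, as did 2.19% of all genes. With the methods' t-test in place of limma none of the 3 had an unadjusted p under 0.05, and Cacng2 alone of the 32 genes met p and size limits together. None passed a Benjamini-Hochberg adjusted p under 0.05, the lowest adjusted p being 0.642, and 0 of all 33169 tested probe sets did so (1 did with limma's trended, robust prior), while 2546 had an unadjusted p under 0.05. In all 3 pairs 7 of the 32 genes were higher (21.9%, beside 15.2% of all genes) and 3 were lower (9.38%, beside 15% of all genes). Of the pore subunits 13 of 16 were above 0 with a median of 0.14, and of the auxiliary subunits 6 of 16 with a median of -0.03, while 45.7% of all genes were above 0 with a median of -0.02. This difference between the kinds of subunit was not tested.

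**Figure D1:**
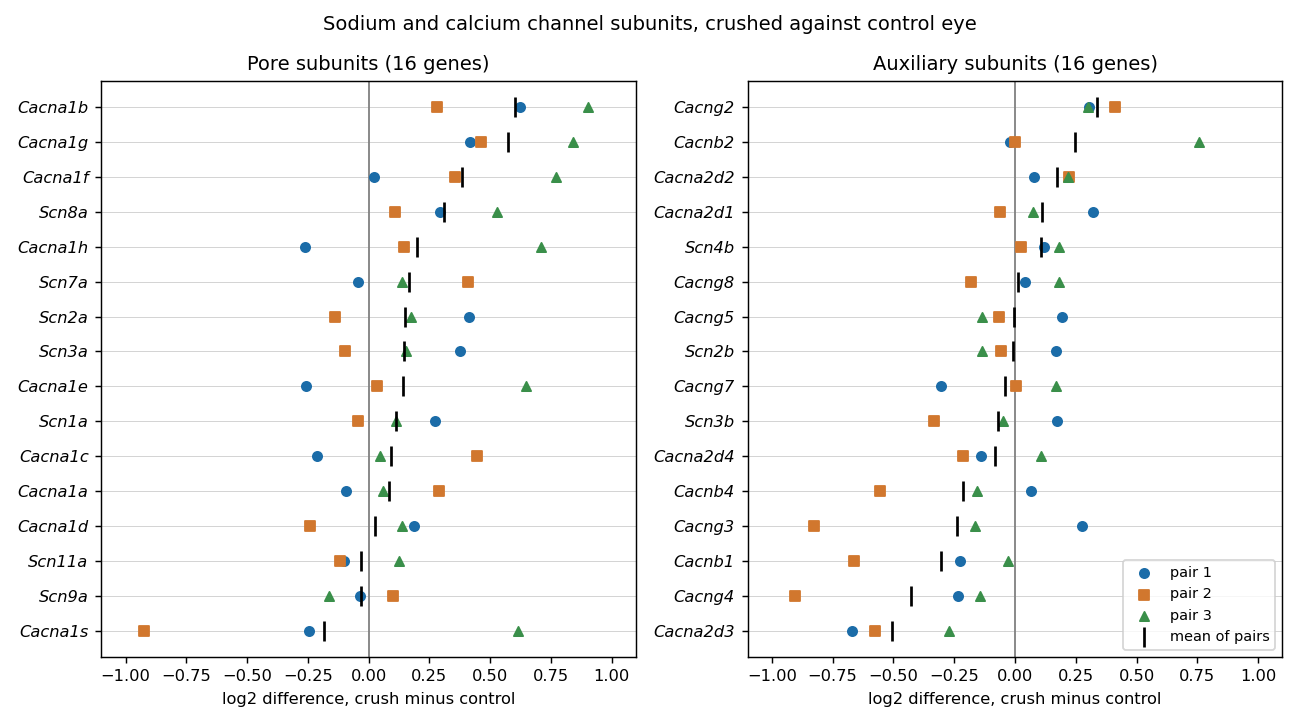
Log2 difference, crush minus control, for each of the 32 channel genes, with 1 symbol per pair of eyes and a bar at the mean of the 3 pairs. Cacna1b and Cacna1g lie above 0 in every pair and Cacna2d3 lies below 0 in every pair, while most other genes cross the line.

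The pairs did not share 1 pattern. In pair 1, 8 of 16 pore subunits were higher in the crushed eye with a median of -0.01, in pair 2, 10 were higher with a median of 0.10, and in pair 3, 15 were higher with a median of 0.16. For the auxiliary subunits the medians were 0.07, -0.13 and 0.02, with 10, 5 and 8 of 16 higher. Over all genes the medians were 0.01, -0.10 and 0.04, lowest in pair 2 and highest in pair 3. Of all 15103 genes 8008, 5861 and 8631 were higher in pairs 1, 2 and 3. All 9 calcium channel alpha1 genes were higher in pair 3, while 4 of them were higher in pair 1.

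Cacna1b, the pore of the N-type calcium channel that triggers transmitter release at many synapses, had the largest rise among the 32 genes. Its probe set 1460608_at had intensities of 644, 826 and 828 in the control eyes and 991, 1004 and 1550.1 in the crushed eyes of pairs 1, 2 and 3. Every crushed eye was above every control eye, a separation seen in 5.69% of all genes, and the highest value was that of crush eye 3. Crushed eyes averaged 1182 ± 319 and control eyes 766 ± 106 (SD, n = 3 eyes each), which is a log2 difference of 0.60. Its standard error was 0.17 and its unadjusted p was 0.016 from limma (adjusted p = 0.642). A further probe set, 1436602_x_at, gave 0.61, with 624, 776 and 764 in control and 931, 980.3 and 1449 in crushed eyes. The remaining probe sets gave 0.18 and -0.34, both with their lowest difference in pair 2 (-0.51 and -1.28), and neither was nominally significant. Without pair 1 the difference was 0.59 (unadjusted p = 0.072), without pair 3 it was 0.45 (unadjusted p = 0.087), and the mean over all 4 probe sets was 0.26 (unadjusted p = 0.26), all from limma. The nominal call was thus lost without pair 1 or pair 3, in fits with fewer arrays, although the difference hardly changed without pair 1. It was also lost with the mean over probe sets.

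Cacna1g, a pore of the low-voltage T-type channel, was measured by a single probe set, 1423365_at. Control eyes had 350.2, 429 and 394 and crushed eyes 467, 590.4 and 706. Again every crushed eye was above every control eye, which 2 of the 32 genes showed (6.25%, beside 5.69% of all genes). The means were 588 ± 119 and 391 ± 39.4 (SD, n = 3 eyes each). The log2 difference was 0.57 with a standard error of 0.16 (unadjusted p = 0.013 and adjusted p = 0.642 from limma), and it was 0.44 without pair 3 (unadjusted p = 0.076). Cacna1h, another T-type pore, had differences of -0.26, 0.15 and 0.71 in the 3 pairs and a mean of 0.20, which was not past the threshold.

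**Figure D2:**
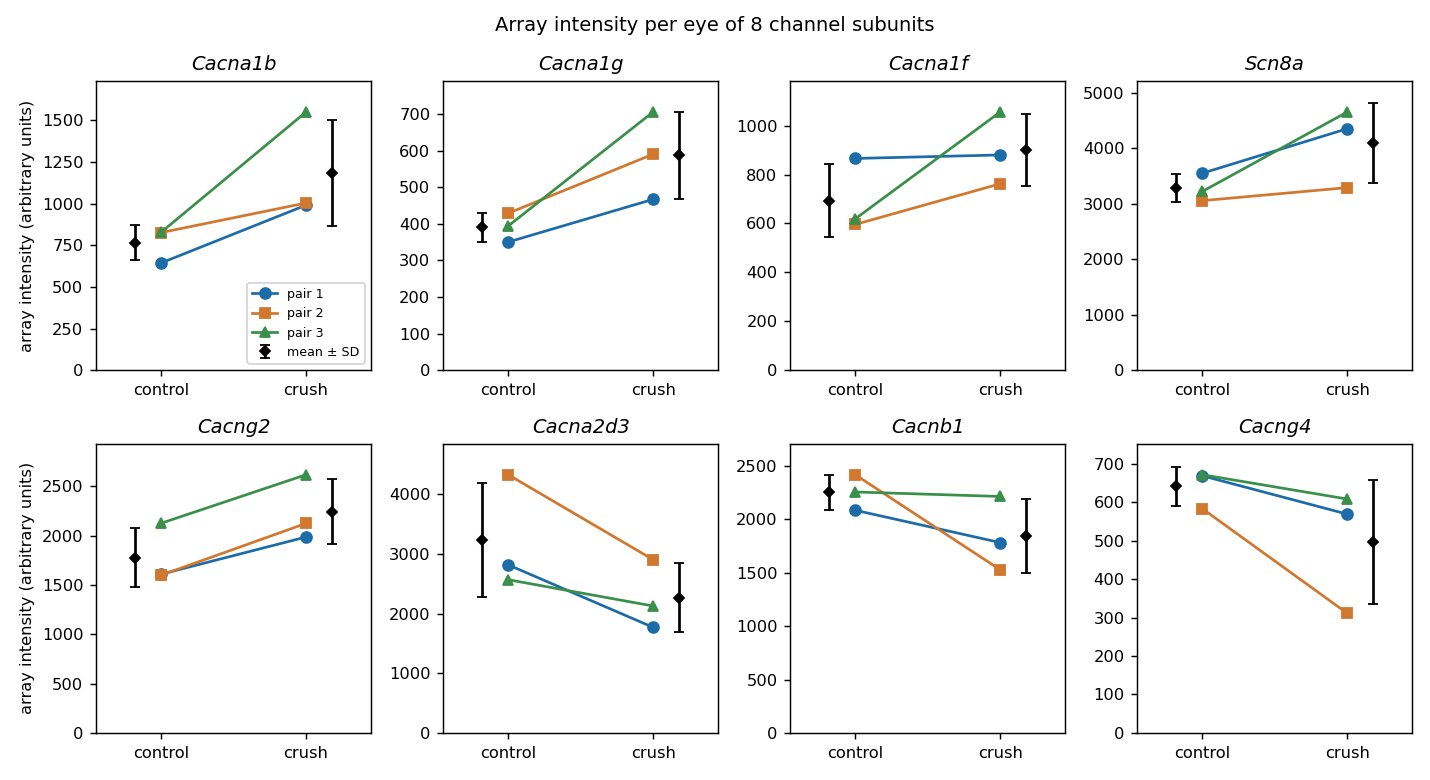
Array intensity per eye, in arbitrary units on an axis from 0, of 8 channel genes, with lines joining the eyes of a pair and diamonds for the mean and SD of 3 eyes. Cacna1b and Cacna1g show no overlap between control and crushed eyes, while the other 6 genes overlap.

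Of the L-type pores, Cacna1f, known for its place at photoreceptor synapses, had 866, 596 and 619 in control and 880.0, 762 and 1056 in crushed eyes. It was higher in each pair, by 0.02, 0.36 and 0.77, but the groups overlapped. The log2 difference of 0.38 was not past the threshold (unadjusted p = 0.094 from limma). Rod markers had medians of -0.21, 0.22 and 0.84 in the 3 pairs. All 10 were lower in pair 1, where Cacna1f differed by 0.02, 8 were higher in pair 2 and 10 in pair 3. On average 10 of 10 were above 0, none past the threshold, and none was below the intensity limit. Their summed intensity was 39630 to 66920 in control and 55570 to 62240 in crushed eyes, and their part in the difference of Cacna1f was not tested. Cacna1c and Cacna1d, the widely expressed L-type pores, had 0.09 (95% interval -0.36 to 0.54) and 0.03 (-0.37 to 0.42). Cacna1s, the pore of skeletal muscle, had intensities of 30.3 to 91 and differences of -0.24, -0.92 and 0.61.

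Cacna1a, the pore of P/Q-type channels at fast synapses, depended on the probe set. The brightest, 1430408_at, had 220.0, 204 and 221 in control and 207, 249 and 230.2 in crushed eyes, a difference of 0.08 (95% interval -0.29 to 0.46). Its 2 dimmer probe sets gave 0.44 (unadjusted p = 0.042) and 0.41 (unadjusted p = 0.038), both higher in all 3 pairs and both with an adjusted p of 0.642 from limma. For 1450510_a_at the control eyes had 135, 147 and 150 and the crushed eyes 194, 167 and 213. The crushed eyes were above with no overlap, as for 2417 of all 33169 tested probe sets. Cacna1e, an R-type pore, had -0.26, 0.04 and 0.65 in the 3 pairs.

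Of the 7 sodium channel pores 5 were above 0, and none passed the threshold on its brightest probe set. Their medians by pair were 0.27, -0.04 and 0.14, beside 0.22, -0.23 and -0.11 for the 15 RGC markers, whose part in these values was not tested. Scn8a, the main alpha subunit at mature axon initial segments and nodes of Ranvier, had 3551, 3056 and 3222 in control and 4353, 3291 and 4654 in crushed eyes. It was higher in each pair, by 0.29, 0.11 and 0.53, yet crush eye 2 was below control eye 1. The difference was 0.31 (95% interval -0.08 to 0.70, unadjusted p = 0.095 from limma), with 0.15, 0.18 and -0.10 on its dimmer probe sets. Without the array of crush eye 2, in a fit with no pairing, it was 0.46 (unadjusted p = 0.014).

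Scn1a, Scn2a and Scn3a, the other alpha subunits of central neurons, were higher in pairs 1 and 3 and lower in pair 2 on their brightest probe sets. On the dimmer probe sets Scn1a was lower in pair 3 too, with differences of -0.20 and -0.08, and Scn2a was higher in pair 2, with 0.45. Their differences were 0.11 (95% interval -0.25 to 0.48), 0.15 (-0.27 to 0.57) and 0.14 (-0.25 to 0.54). For Scn2a the control eyes had 1626, 1746 and 1643 and the crushed eyes 2165, 1585 and 1855. A slightly dimmer probe set, 1427280_at, had 1326, 1514 and 1339 in control and 1701, 2064 and 1629.6 in crushed eyes, a difference of 0.36 (unadjusted p = 0.042 from limma). Its crushed eyes were above with no overlap, as for 2417 of all 33169 tested probe sets. Scn7a, which encodes a sodium-sensing relative of these channels, had 0.17 and 0.26 on its tested probe sets. Scn9a and Scn11a, best known from sensory neurons of the periphery, had intensities of 138 to 202 and 103 to 130.3, with differences of -0.03 for each. The dimmer tested probe sets of Scn9a gave -0.01 and 0.18.

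Over the 61 tested probe sets of the 32 genes 7 were higher and 1 was lower at an unadjusted p under 0.05, or 11.5% and 1.64%, beside 5.16% and 2.51% of all tested probe sets. Those on dimmer probe sets were the ones of Cacna1a, Cacna1b and Scn2a described above and 1 of Cacna2d1. Probe sets of a gene share its transcripts and are not independent. Of 17 genes with 2 or more tested probe sets, 7 had the same sign on all of them.

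**Figure D3:**
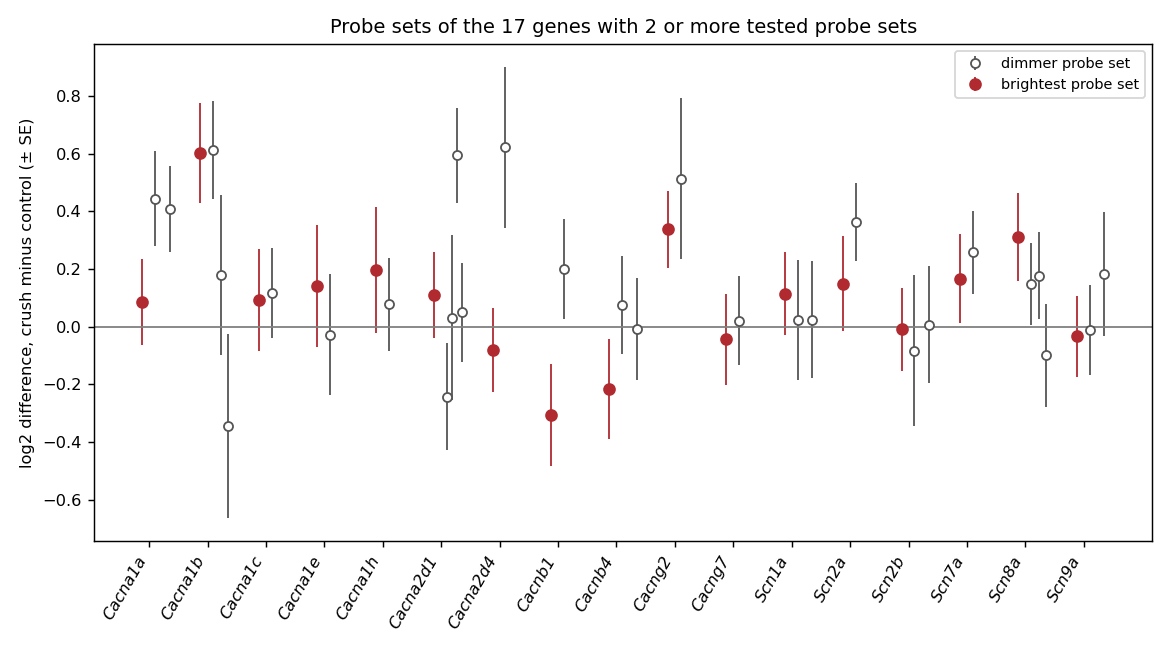
Log2 difference, crush minus control, with its standard error from limma, for every tested probe set of the 17 genes with 2 or more of them. Filled symbols are the brightest probe set of a gene and open symbols the dimmer ones, and for 10 genes the symbols lie on both sides of 0.

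Among the alpha2delta subunits, extracellular proteins that raise the surface density of calcium channels, Cacna2d3 was the only channel gene with a nominally significant fall on its brightest probe set. Its single probe set, 1419225_at, had 2819, 4331 and 2569.7 in control and 1771, 2906 and 2128 in crushed eyes. The crushed eye was lower in each pair, but the groups overlapped, with crush eye 2 above control eyes 1 and 3. Crushed eyes averaged 2269 ± 581 and control eyes 3240 ± 953 (SD, n = 3 eyes each), which is a log2 difference of -0.51 with a standard error of 0.15 (unadjusted p = 0.019, adjusted p = 0.642 from limma). Without the pairing the same difference had an unadjusted p of 0.096. Without pair 1 it was -0.42 (unadjusted p = 0.12) and without pair 2 -0.47 (unadjusted p = 0.052). Bipolar cell markers were lower in the same pairs, with medians of -0.26, -0.47 and -0.11 beside -0.67, -0.58 and -0.27 for Cacna2d3. All 8 were below 0 on average and none was under the intensity limit. Their summed intensity was 17210 to 19950 in control and 15020 to 16490 in crushed eyes. Limma put 3 of the 8 past the nominal threshold, each as a fall, beside falls in 2.27% of all genes. None of the 8 passed after adjustment, and 2 also met the study's size limits. For 3 of the 8 every crushed eye was below every control eye, as for 5.32% of all genes. Among amacrine cell markers 9 of 11 were below 0 too, none past the threshold. Among Muller cell markers 8 of 9 were below 0, with 1 past it. The part of these markers in the fall of Cacna2d3 was not tested.

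On their brightest probe sets the other alpha2delta genes did not pass the threshold. Cacna2d2 had 5568, 5424 and 6197 in control and 5870.0, 6323 and 7200.2 in crushed eyes, higher in each pair with a difference of 0.17 (95% interval -0.17 to 0.52). Cacna2d1, which like Cacna2d2 binds gabapentin, had 0.11 on its brightest probe set, and its other probe sets ran from -0.24 to 0.59, the last with an unadjusted p of 0.014 from limma. Cacna2d4, a partner of the photoreceptor channel, had -0.08 on the brightest and 0.62 on a dimmer probe set.

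The beta subunits, cytoplasmic proteins that bring calcium channel pores to the membrane, gave no call. Cacnb1 had 2086, 2419 and 2257 in control and 1783, 1529 and 2215 in crushed eyes, lower in each pair with a difference of -0.31 (unadjusted p = 0.14 from limma) that was -0.13 without pair 2. Its dimmer probe set gave 0.20, higher in 2 of the 3 pairs, and the mean over both was -0.05. Cacnb4 had 0.07, -0.56 and -0.16 in the 3 pairs. Cacnb2 had -0.02, 0.00 and 0.76, so its mean of 0.25 came from pair 3.

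Of the gamma subunits, Cacng2 (stargazin), which carries AMPA receptors to the synapse, had similar differences in the 3 pairs. Its brightest probe set, 1440210_at, had 1609.5, 1599.5 and 2126 in control and 1987, 2125 and 2618 in crushed eyes. It was higher by 0.30, 0.41 and 0.30 in pairs 1, 2 and 3, although crush eyes 1 and 2 were below control eye 3. The difference of 0.34 (standard error 0.13) had an unadjusted p of 0.051 from limma, just outside the threshold. The same difference was inside it under other settings of limma, with an unadjusted p of 0.0066 when intensities under 64 were set to 64 and of 0.0046 without the intensity limit. With any 1 pair left out it was outside, at an unadjusted p of 0.11 to 0.16 from limma. Its dim probe set gave 0.51, with -0.16 in pair 2. The paper lists Cacng2 among its genes higher after crush. Cacng4, a related AMPA receptor partner, had 669, 584 and 672 in control and 569, 311 and 609 in crushed eyes. It was lower in each pair with a difference of -0.43 (unadjusted p = 0.082 from limma), which was -0.19 without pair 2. It was past the threshold in limma after quantile normalization (unadjusted p = 0.033) and with arrays scaled to the same median (unadjusted p = 0.049). Cacng3 had 0.28, -0.83 and -0.17, while Cacng5, Cacng7 and Cacng8 had means of -0.00, -0.04 and 0.01.

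The sodium channel beta subunits, which resemble cell adhesion molecules and tune gating and placement of the pore, gave no call and differences between -0.07 and 0.11. Scn2b had 4009, 4154 and 4387 in control and 4509, 3986 and 3992 in crushed eyes, a difference of -0.01 (95% interval -0.37 to 0.36). Scn3b had -0.07 (-0.48 to 0.34) and Scn4b 0.11 (-0.23 to 0.45), the latter higher in each pair by 0.12, 0.03 and 0.18. These intervals still admit changes of about the size seen for Cacng2.

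Promoter sequence was compared for the genes above, and the windows of the 2 called genes with an entry and of Cacng2, which lay next to the threshold, are shown because the 2 called genes moved in opposite directions. RefSeq windows on GRCm38.p6, from 250 bases before to 50 after a start, were found for 25 of the 32 genes (35 windows). Cacna1b lies on the minus strand at chr2:24763103-24763402, Cacna2d3 on the minus strand at chr14:29721815-29722114 and Cacng2 on the minus strand at chr15:78119231-78119530, and Cacna1g had no entry. They are printed 5′ to 3′ along the gene, with capitals for a GC box (GGGCGG on either strand), the binding motif of Sp1 family factors.
Cacna1b: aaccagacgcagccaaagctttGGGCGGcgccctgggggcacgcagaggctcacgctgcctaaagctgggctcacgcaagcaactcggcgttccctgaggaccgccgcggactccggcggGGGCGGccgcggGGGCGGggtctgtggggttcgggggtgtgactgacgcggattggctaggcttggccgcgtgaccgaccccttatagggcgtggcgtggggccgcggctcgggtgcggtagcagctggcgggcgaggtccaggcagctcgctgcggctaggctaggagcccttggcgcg
Cacna2d3: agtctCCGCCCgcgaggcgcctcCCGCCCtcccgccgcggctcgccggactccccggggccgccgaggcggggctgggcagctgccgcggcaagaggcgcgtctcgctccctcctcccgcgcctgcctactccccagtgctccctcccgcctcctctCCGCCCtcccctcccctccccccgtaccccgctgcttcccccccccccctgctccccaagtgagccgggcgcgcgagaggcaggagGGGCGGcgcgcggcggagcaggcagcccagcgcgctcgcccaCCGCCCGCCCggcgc
Cacng2: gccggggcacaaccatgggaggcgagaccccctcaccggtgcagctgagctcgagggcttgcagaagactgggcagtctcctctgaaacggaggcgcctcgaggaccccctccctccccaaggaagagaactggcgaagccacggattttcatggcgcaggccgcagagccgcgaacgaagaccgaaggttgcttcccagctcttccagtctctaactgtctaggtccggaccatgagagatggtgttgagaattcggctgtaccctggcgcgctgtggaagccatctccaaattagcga
The window of Cacna1b holds 3 GC boxes, that of Cacna2d3 holds 6, of which 2 overlap, and that of Cacng2 holds 0, with a GC content of 72.3%, 81.3% and 61%. Over all 32851 windows 35.7% hold this motif, and over the 35 windows of the channel genes 40% do. Searched on both strands, a TATA box (TATAAA) is in 5.71% of the channel windows and 13.6% of all, an AP-1 site (TGANTCA) in 2.86% and 7.81%, and a STAT site (TTCNNNGAA) in 11.4% and 8.3%. A CRE (TGACGTCA) and the left side of RE1 (TTCAGCACC), the element of the repressor REST, were in 0 of the 35 channel windows, and in 1.79% and 0.371% of all windows. None of these motifs other than the GC box is in the 3 windows printed. A match of letters is a description and not a binding site.

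Proteins that act on these channels were read from lists of partners. Of 12 genes for axon initial segment and sodium channel partners, among them the ankyrins Ank2 and Ank3 and the FGF homologous factors, 7 were above 0 and none passed the threshold in either direction, with a median of 0.07. All 12 were higher in pair 1, as were all 15 RGC markers, and 6 were higher in pair 2, where 4 of the RGC markers were. The part of the RGC markers in this was not tested. Groups did not overlap for Nfasc, an adhesion molecule of the initial segment, and Nedd4l, a ubiquitin ligase that removes sodium channels, both named after their values were seen, a separation that 5.69% of all genes showed. Their differences were 0.14 and 0.33, neither past the threshold in the main fit. Under some other settings each was past it. Nedd4l was so without the pairing (unadjusted p = 0.045 from limma) and Nfasc without the intensity limit (unadjusted p = 0.021 from limma).

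With limma's unadjusted p under 0.05, of 11 calcium channel regulators 2 were higher and 1 was lower, beside 2.76% and 2.27% of all genes. None of the 3 passed with the methods' t-test. Gem and Rrad are small GTPases of the RGK family, which inhibit calcium channels, and they moved in opposite directions. Gem had 126, 220.0 and 125 in control and 86.4, 95.7 and 71.2 in crushed eyes, and every crushed eye was below every control eye, as for 5.32% of all genes. Its difference was -0.85 (unadjusted p = 0.0042, adjusted p = 0.642 from limma), and it was between -1.01 and -0.68 with any 1 pair left out. Rrad had 62, 49.5 and 50.4 in control and 78.1, 82.2 and 168 in crushed eyes, with no overlap but at a low signal. Its difference of 0.93 (unadjusted p = 0.022) was 0.53 without pair 3 (unadjusted p = 0.059). Cabp4, a calcium binding protein of photoreceptor terminals that modulates their calcium channel, had 1878, 803 and 697 in control and 2015, 1568 and 1728 in crushed eyes. Its difference of 0.79 (unadjusted p = 0.026 from limma) was 0.80 on the other probe set. By pair it was 0.10, 0.96 and 1.31, with the rod marker medians given above rising in the same order, and their part was not tested. Without pair 3 the difference was 0.53 (unadjusted p = 0.12), and without the pairing it had an unadjusted p of 0.067.

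Of 7 AMPA receptor genes and partners, with which the gamma subunits act, 4 were above 0 and none passed the threshold, with a median of 0.03. Gria1 and Gria2, the AMPA receptor subunits with the lowest differences, had -0.59 and -0.50 on average and -1.50 and -1.27 in pair 2 alone. They are named after their values were seen. Of 7 related cation channels, such as the sodium leak channel Nalcn and the endolysosomal Tpcn1 and Tpcn2, 1 was above 0 and none passed, with a median of -0.24, of -0.65 in pair 2 and of -0.03 and -0.06 in pairs 1 and 3.

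**Figure D4:**
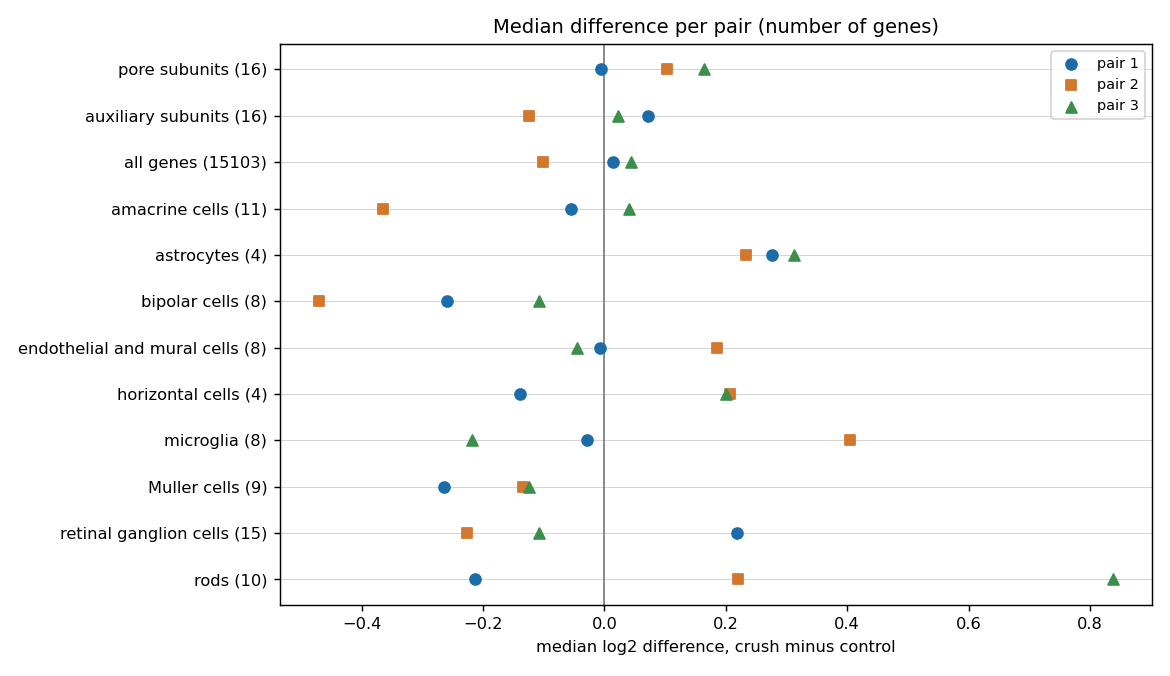
Median log2 difference, crush minus control, in each pair of eyes for pore and auxiliary channel subunits, for all genes and for markers of 9 cell types, with the number of genes in parentheses. The channel medians lie between -0.13 and 0.16, while rod markers run from -0.21 to 0.84 and bipolar cell markers from -0.47 to -0.11.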

How the data were processed

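Array values were taken for 6 eyes, 3 per group. The deposited intensity values are linear signals that the authors calculated in dChip with the PM/MM model after invariant set normalization. Control probe sets (64) were left out. After a floor of 16 and a log2 step, limma 3.58.1 in R 4.3.3 was fitted to 33169 probe sets (mean 40 or more), with eye number as a block and Benjamini-Hochberg adjustment across the whole fit. Eyes were paired since the study's own test is paired and its controls are uninjured fellow eyes. Deviations of same-numbered eyes from their group means correlated at 0.154, 0.125 and 0.297 over the tested probe sets, and those of eyes with different numbers at -0.264 to 0.131. Deviations cancel out within a group, so these correlations depend on each other. They do not show that same-numbered eyes come from the same animal. Symbols came from the platform table, where 34945 probe sets carry 1 symbol, and for partner and marker lists too the brightest probe set of a gene was used. The study asked for a paired t-test p under 0.05, a ratio over 1.2 and group means more than 80 apart. In the counts here the p of limma stands in for that of the t-test, which was run as an alternative. That run was a paired t-test on the deposited linear intensities, and its p values need not equal those that the study obtained. Every kept channel gene could be named, and from a partner list the genes at an unadjusted p under 0.05. Marker lists cover RGCs, amacrine, bipolar and horizontal cells, rods, Muller cells, astrocytes, microglia, and endothelial and mural cells. The channel genes and the lists were chosen with earlier results of these data known. In 15 alternatives the block, floor, filter, scaling, prior, test, arrays or probe sets were varied, and the calculation was tested on simulated data. Confidence intervals (95%) are from limma. Precision is limited by the number of arrays. The labels do not name the animal of each eye, so the pairing rests on eye number. In the fit with this block p values rest on the spread of the differences between same-numbered eyes and on limma's prior. This prior pools the spread of all tested probe sets, so a p does not measure the agreement of a gene's own pairs alone. Sequences are from RefSeq, GRCm38.p6, read with Python 3.11.15.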

Additional observations from a re-analysis of the deposited data

How the results depend on the processing

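Cacna1b, Cacna1g and Cacna2d3 kept their direction under all 15 alternatives. Cacna1b was no longer past an unadjusted p under 0.05 under 5 of them, Cacna1g under 3 and Cacna2d3 under 5. With no replicate block 2 channel genes passed it, Cacna1b and Cacna1g, and 2082 probe sets over the array. The count of 3 channel genes became 5 with no intensity filter, where Cacna2d2 and Cacng2 joined, and 5 with limma's intensity trend and robust prior, where Cacng2 and Scn8a joined and where 5 met the study's size limits. With the methods' t-test it was 1, Cacng2, with or without the study's size limits. Over all alternatives Cacng2 passed in 6. Gem, Rrad and Cabp4 were lost with the methods' t-test, where the count of partner genes was 1, Nfasc, with 1671 probe sets in all. Rrad and Cabp4 were also lost with a floor of 64 and with no intensity filter, where Gem was kept. Without pair 3 both were lost too. Cabp4 was further lost without pair 2, without the pairing, and without crush eye 2 or 3. Averaging all probe sets of a gene gave 5 partner genes. When a pair, or the array of crush eye 2 or 3, was left out, the nominal count and the count at the study's size limits both ran from 1 to 4, that of partner genes from 1 to 4 and that of all probe sets from 1551 to 2696. In these settings the pore subunits' median ran from 0.08 to 0.21 and that of the auxiliary subunits from -0.09 to 0.05, so the latter has no settled sign. Without crush eye 3, in a fit with no pairing, the called genes were Cacna1s and Cacnb1, both lower. The cause was not tested in any of these. Signal close to the floor limits what can be seen for Cacna1s, Cacng8 and Rrad.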

Other observations

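Channel genes varied more between crushed eyes than between control eyes. The coefficient of variation was higher in the crush group for 25 of 32 genes (78.1%), with a median of 16.9% against 9.59% in control eyes, while over all genes it was higher for 64%, with medians of 14.5% and 10.2%. Cacna1s, a dim gene, ran from 1.84% in control to 54.8% in crushed eyes, Cacng4 from 7.83% to 32.5% and Cacna1b from 13.8% to 27%. Cacna2d3 was the reverse, at 29.4% in control and 25.6% in crushed eyes. This difference in spread was not tested.

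Several of these genes are neighbours on mouse chromosomes in the GRCm38.p6 annotation. Scn3a lies next to Scn2a, and Scn1a, Scn9a and Scn7a follow each other, all on chromosome 2. Their differences were 0.14 for Scn3a, 0.15 for Scn2a, 0.11 for Scn1a, -0.03 for Scn9a and 0.17 for Scn7a. Cacng4 and Cacng5 are neighbours on chromosome 11 and had -0.43 and -0.00. Cacng7 and Cacng8 are neighbours on chromosome 7 and had -0.04 and 0.01.

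The median over 8 microglial markers was -0.03, 0.40 and -0.22 in the 3 pairs, over 4 astrocyte markers 0.28, 0.23 and 0.31, over 8 endothelial and mural cell markers -0.01, 0.19 and -0.05, over 4 horizontal cell markers -0.14, 0.21 and 0.20, over 11 amacrine cell markers -0.06, -0.36 and 0.04, over 9 Muller cell markers -0.27, -0.13 and -0.13, and over 15 RGC markers 0.22, -0.23 and -0.11.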
